A study of Mus musculus with 36 samples.

Results

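Tjp1, Loxl2, Pcdh7, Maob, Plscr4 and C130026I21Rik are 6 of the 24421 genes counted in every library of a mouse atherosclerosis series. They are described here because their levels were higher in peritoneal macrophages after 6 months of high cholesterol diet than after 1 month or on chow. The 6 were selected on those peritoneal values, so their peritoneal levels and differences are a description and carry no test. The rule states no numerical threshold. Their values in monocytes and aortic macrophages were not used by the rule and were tested.

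The series holds RNA sequencing of 3 cell populations sorted by flow cytometry from Apoe ko mice, animals that lack apolipoprotein E and accumulate cholesterol-rich lipoproteins in blood. The populations are macrophages washed out of the peritoneal cavity, monocytes taken from blood and spleen together, and macrophages released from whole aorta with collagenase. Mice on chow diet gave the baseline samples, 1 month on a high cholesterol diet gave the early ones and 6 months on it the advanced ones, which makes 9 groups of 4 libraries, 36 in total. The stated aim was to follow gene regulation in these cells as atheroma starts and progresses. All groups carry the Apoe ko genotype, so no group shows the genes on a wild-type background. The labels give no age, sex or pooling of animals. Time on the diet and any difference in age between the stages cannot be told apart. The labels do not tie libraries to animals, so p-values measure only the spread between these samples, which may be technical.

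The 6 genes encode proteins of unlike function. Tjp1 encodes ZO-1, the scaffold that ties occludin and claudins of tight junctions to actin, and Pcdh7 encodes a protocadherin, a transmembrane adhesion protein of the cadherin superfamily. Loxl2 encodes a secreted copper-dependent lysyl oxidase that cross-links collagen, Plscr4 a member of the phospholipid scramblase family, and Maob the mitochondrial monoamine oxidase B. C130026I21Rik is a gene of the SP100 and SP140 neighbourhood with no assigned function used here. Resident peritoneal macrophages are mostly large peritoneal macrophages, long-lived cells that depend on the transcription factor GATA6, and a smaller class of CCR2-positive, MHC class II-rich cells derived from monocytes.

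Depth differed with stage: the baseline libraries held 5278901 to 14771799 counts and no early or advanced library exceeded 2628766. In the peritoneum the totals were 9252521 to 14312494 at baseline, 1312684 to 2558232 at the early stage and 1666381 to 2211504 after 6 months, so the advanced and early groups are matched in depth and the baseline group is not. Values are given as counts-per-million (CPM), counts scaled by the library's total count. The sorted peritoneal cells carried the markers of their label: Gata6 was at 157 to 181 CPM at baseline, 71.9 to 206 at the early stage and 161 to 174 at the advanced stage. Early libraries 1 and 2 stood apart. Their summed CPM over 10 small peritoneal macrophage markers was 4999 and 11681, against 139 to 568 in the other 10 peritoneal libraries, and their sum over 12 large peritoneal macrophage markers was 12171 and 7261, against 17674 to 26780 elsewhere. The fold of each of the 6 against the early group is also given without those libraries. In sorted bulk cells, a larger share of cells with a transcript and more of it per cell cannot be told apart.

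Tjp1 was present in every peritoneal library. At baseline it was at 17.1, 19.1, 19.4 and 31.4 CPM in replicates 1 to 4, at the early stage at 27.7, 12.1, 38.1 and 32.3, and at the advanced stage at 107, 119, 99.7 and 85.9. The 4 advanced libraries lay above all 8 others, and the baseline and early libraries overlapped. The means were 21.7 ± 6.5, 27.6 ± 11.1 and 103 ± 14.0 CPM (SD, n = 4), which is a ratio of 4.73 for advanced over baseline and 3.73 for advanced over early. Over early libraries 3 and 4 alone the ratio was 2.92. The spread among the advanced libraries was narrow, with the highest only 1.39 times the lowest.

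Pcdh7 was close to undetected before the advanced stage. Its counts were 9, 4, 3 and 0 at baseline, 0, 2, 2 and 1 at the early stage and 21, 44, 26 and 33 at the advanced stage. In CPM the advanced libraries were at 11.5, 26.4, 14.2 and 14.9, and no other peritoneal library exceeded 1.52. The ratio of the means was 45.0 for advanced over baseline and 23.6 for advanced over early, and it rests on 16 counts over the baseline group and 5 over the early group. Pcdh7 had the largest fitted change of the 6 in both contrasts, 5.52 ± 0.59 on the log2 scale against baseline and 4.69 ± 0.72 against early (edgeR, ± SE). Without early libraries 1 and 2 its early mean was 1.03 CPM, on 3 counts, and the change against early was 4.08, below the 4.59 of Maob.

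Loxl2 was low at baseline, with 1.35, 1.73, 1.86 and 4.54 CPM, and at the early stage, with 0, 1.56, 2.29 and 3.71 CPM. The advanced libraries were at 12.6, 21.6, 27.8 and 21.7 CPM. These 4 did not overlap the others, and the highest of the remaining libraries was baseline replicate 4. The means were 2.37 ± 1.46, 1.89 ± 1.54 and 20.9 ± 6.27 CPM (SD, n = 4), a ratio of 8.82 for advanced over baseline and 11.1 for advanced over early. Over early libraries 3 and 4 the ratio was 6.98.

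Plscr4, the most abundant of the 6 at baseline, showed the smallest difference. It was at 51.3, 46.1, 52.9 and 39.4 CPM at baseline, at 36.4, 23.8, 39.6 and 45.0 at the early stage and at 67.7, 103, 120 and 82.3 at the advanced stage. The lowest advanced library was above the highest baseline library, so the groups did not overlap, and baseline and early did. The means were 47.4 ± 6.09, 36.2 ± 8.99 and 93.3 ± 22.9 CPM (SD, n = 4). The ratio was 1.97 for advanced over baseline and 2.57 for advanced over early, and 2.20 over early libraries 3 and 4.

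Maob was the lowest of the 6 in CPM at the advanced stage. Its counts were 7, 3, 7 and 3 at baseline, 0, 14, 0 and 1 at the early stage and 17, 13, 14 and 17 at the advanced stage. Early library 2, which stood apart in its markers, held 14 of the 15 early counts. In CPM that library was at 5.47, and the advanced libraries were tightly grouped at 9.29, 7.80, 7.62 and 7.69. The mean was 0.453 ± 0.223 on chow, 1.5 ± 2.66 after 1 month and 8.10 ± 0.80 after 6 months (SD, n = 4). The ratio was 17.9 for advanced over baseline and 5.40 for advanced over early, and without early libraries 1 and 2 the early mean was 0.265 CPM.

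C130026I21Rik was low in both earlier groups. It was at 8.63, 4.76, 9.21 and 4.47 CPM at baseline, at 11.7, 7.04, 9.90 and 6.89 at the early stage and at 47.5, 114, 118 and 99.0 at the advanced stage. Advanced replicate 1 was the lowest of its group and still more than any baseline or early library. The means were 6.77 ± 2.50, 8.87 ± 2.32 and 94.7 ± 32.5 CPM (SD, n = 4), a ratio of 14.0 for advanced over baseline, 10.7 for advanced over early and 11.3 over early libraries 3 and 4.

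**Figure D1:**
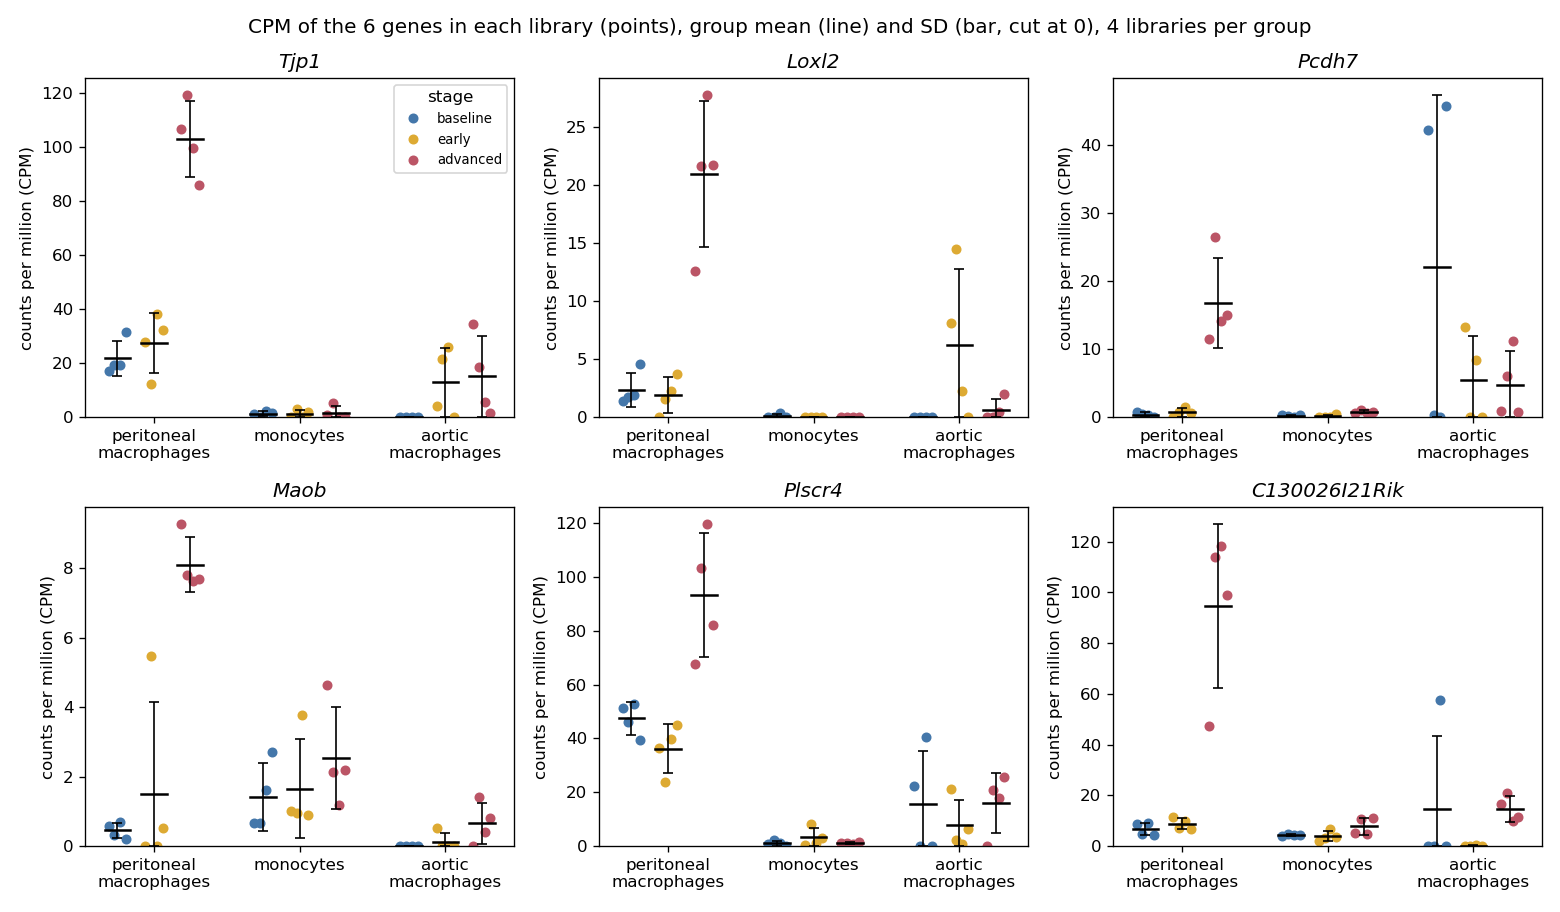
CPM (linear axis from 0) of each of the 6 genes in all 36 libraries, by population and stage; points are libraries, lines are group means and bars are SD of 4 libraries, cut at 0. Advanced peritoneal macrophages sit highest for Tjp1 (85.9 to 119 CPM), Loxl2, Maob, Plscr4 and C130026I21Rik, while for Pcdh7 the aortic baseline group has the highest mean, carried by 2 libraries at 42.2 and 45.7 CPM.

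All 6 genes had every advanced peritoneal library above every baseline library, where 4.84% of the 9575 tested genes did, and above every early library, where 3.55% did. Both held at once for 1.04% of tested genes. In the edgeR fit across all tested genes at an adjusted p under 0.05, 6 of 6 were called higher in advanced than in baseline cells, with 0.512% of genes called higher and 0.898% called in either direction. Against the early stage 5 of 6 were called higher, all but Maob, with 0.522% called higher and 1.33% in either direction. Because these contrasts chose the genes, the counts say only how the 6 stand in the table: ordered by fold among the 49 genes called higher against baseline, Pcdh7, Maob, C130026I21Rik, Loxl2 and Tjp1 were ranks 1 to 5 and Plscr4 was rank 13. Among the 50 called higher against early, Pcdh7, Loxl2 and C130026I21Rik were ranks 1 to 3, Tjp1 rank 9 and Plscr4 rank 15. These contrasts share the advanced libraries. Over both, 11 of the 12 differences were called. Leaving out advanced replicate 3 left 4, and leaving out advanced replicate 2 or 4 left 7, with the direction kept in each. The calls over all genes changed as well: the main fit called 86 against baseline and 127 against early. Leaving out advanced replicate 3 left 3 and 5 of all genes, replicate 2 left 97 and 5, and replicate 4 left 4 and 15. Without early libraries 1 and 2 Maob was called against early and Loxl2 was not.

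Between the early stage and baseline none of the 6 was called, and 1.79% of all tested genes were. At an unadjusted p under 0.05 the count was 1, for Maob, where 21.1% of all tested genes passed, and neither DESeq2 nor limma-voom called any. The fitted log2 changes were 0.33 ± 0.30 for Tjp1, 0.84 ± 0.99 for Pcdh7, -0.40 ± 0.67 for Loxl2, -0.36 ± 0.21 for Plscr4, 1.96 ± 0.82 for Maob and 0.41 ± 0.35 for C130026I21Rik (edgeR, ± SE). Without early libraries 1 and 2 the sign turned for Loxl2, to 0.42, and for Maob, to -0.38. The summed level of the 6 went from 79.2 ± 4.89 CPM on chow and 76.7 ± 18.6 after 1 month to 337 ± 65.7 after 6 months (SD, n = 4).

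Per kilobase of exon, using GENCODE exon lengths, the order of the levels in advanced peritoneal macrophages differs from the order in CPM. C130026I21Rik stood at 34.9 CPM per kilobase, Plscr4 at 29.1 and Tjp1 at 14.5. Loxl2 was at 3.87, Maob at 3.36 and Pcdh7, whose exons are the longest of the 6, at 1.64.

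Among the 4 advanced libraries the 6 genes did not share an order. Replicate 1 was the lowest for Loxl2, Pcdh7, Plscr4 and C130026I21Rik but the highest for Maob. The spread, as highest over lowest CPM, ran from 1.22 for Maob and 1.39 for Tjp1 to 2.30 for Pcdh7 and 2.49 for C130026I21Rik. Over the 12 peritoneal libraries the Pearson r of log2 CPM for the 15 pairs of genes was 0.597 to 0.944, with a median of 0.842, and the stages that chose the genes set much of it. With each stage's mean removed, r was -0.824 to 0.606 with a median of 0.172. These libraries share stage and depth, so the values are a description.

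The named genes with the pattern most like each of the 6 were taken by the highest Pearson r of log2 CPM over the same 12 libraries, among 8919 genes with a mean of at least 5 CPM and a non-provisional symbol. For C130026I21Rik they were Crebrf (r = 0.955), Nt5c3 and Stxbp3, and for Tjp1 they were Cask (r = 0.938), Cd209b and Nt5c3. Cask encodes a membrane-associated guanylate kinase scaffold, the protein class to which ZO-1 also belongs, and went from 112 ± 14.9 CPM at baseline and 101 ± 13.1 early to 159 ± 9.30 at the advanced stage (SD, n = 4). Cd209b, a C-type lectin receptor, went from 24.8 ± 3.68 and 28.9 ± 12.3 to 71.2 ± 17.4 CPM. For Plscr4 the nearest were Sfrp1 (r = 0.937), a secreted WNT-binding protein, Slc25a36 and Igf2, the fetal growth factor. Igf2 went from 3.92 ± 0.61 and 2.13 ± 1.19 to 13.5 ± 6.13 CPM. Loxl2 was most like Hook3 (r = 0.945), Tnfrsf26 and Fnta, Pcdh7 most like Nt5c3 (r = 0.940), Smim7 and Ctps2, and Maob most like Nr2c2 (r = 0.927), Ctps2 and Scyl2. Some of these differ little between stages, as Smim7 does with 51.0 ± 3.44, 49.6 ± 2.04 and 56.0 ± 3.44 CPM.

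The genes that work beside each of the 6 were taken from lists, and outside the 6 none of the 37 tested list genes passed the test in any peritoneal contrast (edgeR). At an unadjusted p under 0.05 there were 6 against baseline and 6 against early, and over all tested genes the shares were 15.4% and 19.4%. DESeq2 called 2 of 39 list genes with an adjusted p against baseline and 2 of 54 against early, beside 4.64% and 5.12% of all genes. limma-voom called 6 and 1 of the 37, beside 15.9% and 2.17%. The median log2 change over all tested genes was 0.005 against baseline and -0.021 against early.

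Of the tight junction and adhesion list, 9 of the 25 genes counted were tested. Apart from Tjp1 the median log2 change was -0.08 against baseline and 0.11 against early. Occludin (Ocln), the membrane protein that ZO-1 binds, had a mean of 47.6 CPM on chow, 45.9 after 1 month and 74.1 after 6 months, with a log2 difference of 0.72 ± 0.32 against baseline (edgeR adjusted p = 0.304). limma-voom and edgeR without early libraries 1 and 2 called Ocln higher against baseline. Cingulin-like 1 (Cgnl1), another junction component, was the most abundant of the list at 754, 680 and 593 CPM.

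For Loxl2, 10 of 17 counted lysyl oxidase and collagen-modifying genes were tested. The 9 others had a median log2 change of 0.09 against baseline and 0.015 against early, within -0.37 to 0.25 and -0.50 to 0.68. They include the lysyl hydroxylase Plod3, at 288, 254 and 320 CPM, and the prolyl hydroxylase subunit P4ha1, at 98.2, 106 and 98.3 CPM. Of the 18 protocadherin and related genes only Pcdh7 and Dchs1 passed the count filter, and Dchs1 was at 4.48, 2.91 and 3.51 CPM.

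Maoa, which encodes the other monoamine oxidase and lies 21469 bases from Maob, stood at 9.20 ± 1.72 CPM on chow, 7.33 ± 3.43 after 1 month and 9.35 ± 2.11 after 6 months (SD, n = 4). Its log2 difference was 0.11 ± 0.30 against baseline and 0.46 ± 0.34 against early (edgeR adjusted p = 0.900 and 0.489), and the libraries of the 3 stages overlapped. Of the scramblase and flippase list 14 of 18 genes were tested. Tmem30a, the chaperone subunit of the P4-ATPase flippases, came nearest to the threshold, with 262, 257 and 338 CPM and log2 differences of 0.45 ± 0.11 and 0.44 ± 0.12 (edgeR adjusted p = 0.0754 and 0.0733). DESeq2 and limma-voom called Tmem30a higher in both contrasts. Plscr1 stayed low, at 5.94 ± 1.23, 7.49 ± 1.73 and 8.35 ± 1.72 CPM.

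**Figure D2:**
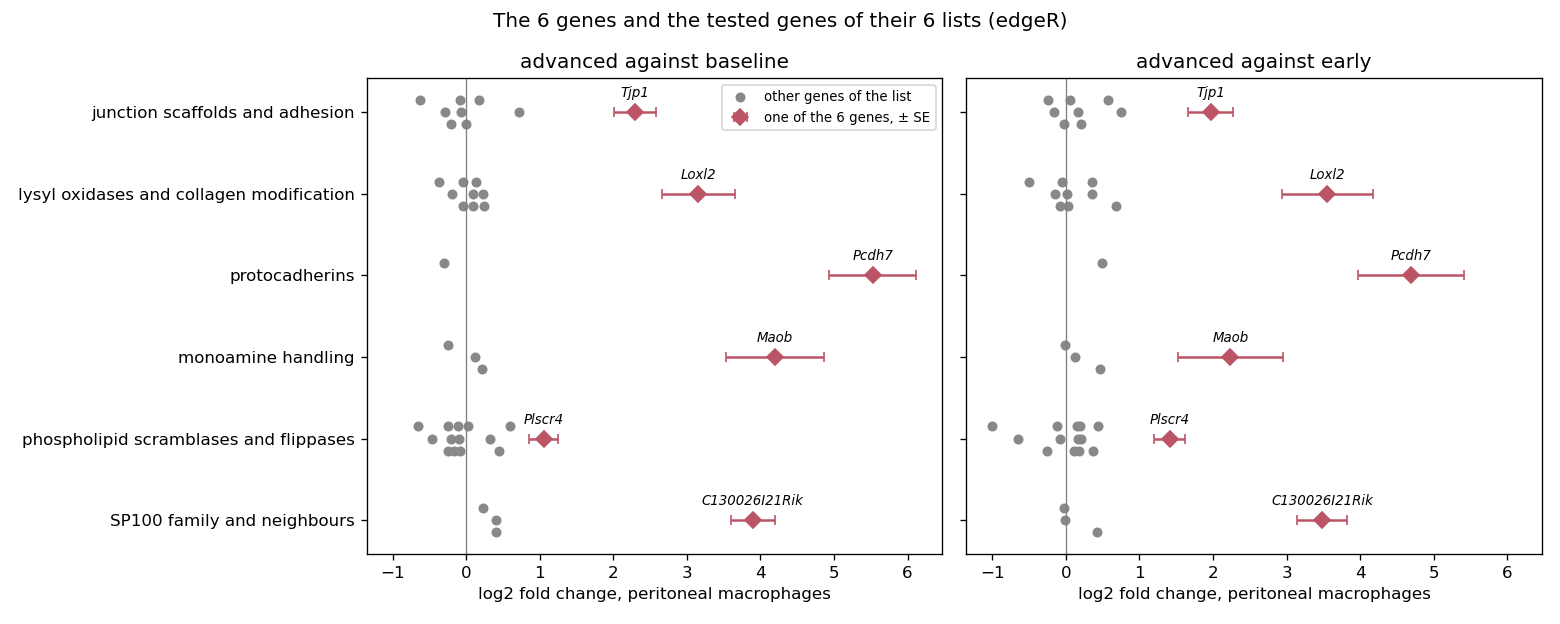
Log2 fold changes in peritoneal macrophages, advanced against baseline (left) and against early (right), of the 6 genes (diamonds, ± SE) and of the tested genes of the list each belongs to (grey points). The 6 were selected on these contrasts; the other list genes lie between -0.65 and 0.72 on the left and between -1.0 and 0.74 on the right.

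C130026I21Rik lies at chr1:85241286-85282883 on the minus strand (GRCm38.p6), beside related genes with which its transcript shares long stretches. At 95% identity or more over at least 50 bases, 74% of its transcript of 1948 bases matched transcripts of 7 other genes, among them A530032D15Rik (46.7%), Sp140 (42.7%) and Sp110 (11.7%). A coding stretch of 60 bases in exon 2, chr1:85260840-85260899, shows how close they are: it is identical in all 3 genes, with 0 differing bases. It is printed 5′ to 3′ in lower case throughout because no base differs.
C130026I21Rik, A530032D15Rik and Sp140: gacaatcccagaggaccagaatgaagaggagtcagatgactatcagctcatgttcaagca
Reads from such a stretch cannot be assigned to a single gene by sequence, and how the deposited counts treated them is not given in the sources used here. C130026I21Rik counts are therefore uncertain as to the gene of origin.

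The related genes were counted on their own rows. Sp140 was at 39.5 ± 6.0 CPM on chow, 45.4 ± 17.2 after 1 month and 44.1 ± 6.72 after 6 months, Sp110 at 41.2 ± 5.0, 39.6 ± 10.4 and 51.6 ± 15.7, and Sp100 at 128.5 ± 28.0, 169 ± 70.3 and 162 ± 40.4 (SD, n = 4). None of these 3 passed the test in a peritoneal contrast (edgeR). A530032D15Rik was low, with 10 to 19 counts per library on chow, 3 to 12 after 1 month and 3 to 15 after 6 months, or 1.33 ± 0.36, 3.21 ± 1.86 and 4.56 ± 2.32 CPM. DESeq2, and edgeR without early libraries 1 and 2, called A530032D15Rik higher in advanced than in baseline cells. The provisional gene Gm7609, 25888 bases from C130026I21Rik, was at 0.489 ± 0.612, 0.972 ± 1.48 and 4.61 ± 1.78 CPM (SD, n = 4). Its 4 advanced libraries, on 6 to 12 counts, lay above the other 8.

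**Figure D3:**
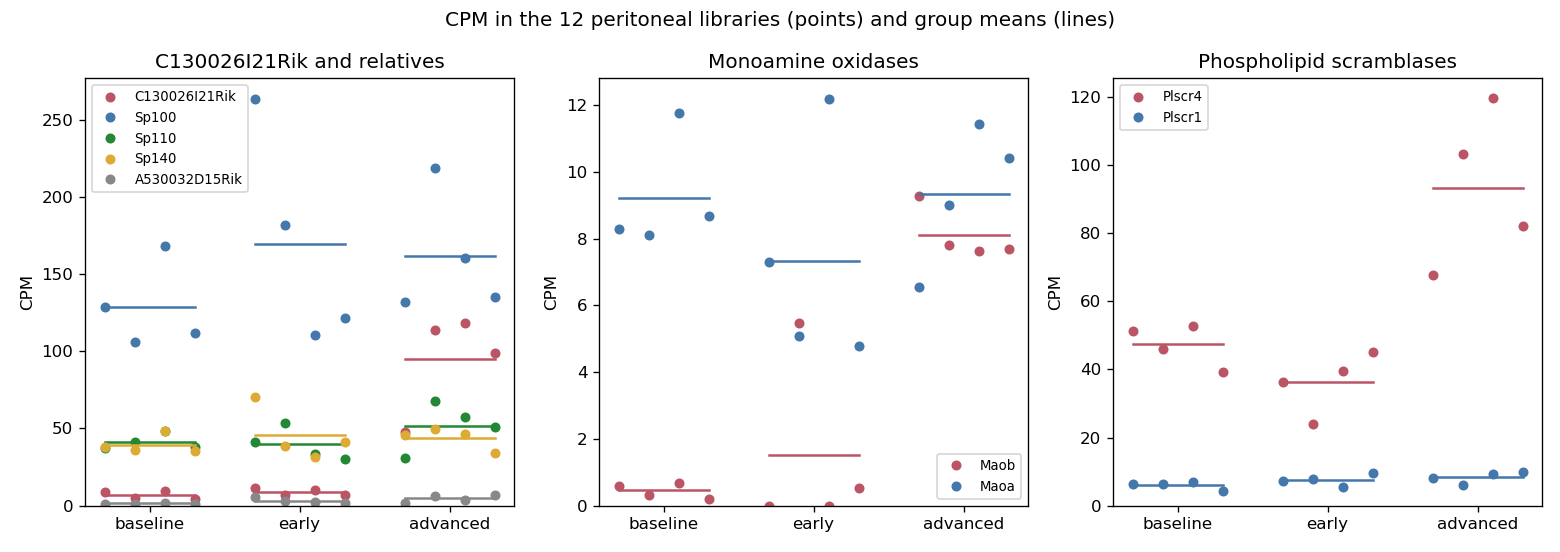
CPM in the 12 peritoneal libraries (points; lines are group means of 4; linear axes from 0) for C130026I21Rik with its relatives, for the monoamine oxidases, and for Plscr4 with Plscr1. Sp140 and Sp110 keep group means of 39.5 to 51.6 CPM and Maoa 7.33 to 9.35 CPM over the stages at which C130026I21Rik and Maob differ.

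Sequence sharing was looked for in the other genes in the same way. Tjp1, Maob and Plscr4 shared 0% of their transcripts with another gene at that identity. Loxl2 shared 49.8% with transcripts of 165 other genes, most of it (44.2% of the transcript) with the provisional gene Gm21451, which has no row in the count tables used here. Because the treatment of reads from shared stretches is not given, Loxl2 counts are also uncertain as to the gene of origin. Pcdh7 shared 25.4%, all with 4932441J04Rik, which overlaps it and had 0 counts in every peritoneal library. The strand setting of the counting is not given in the sources used here, so reads of Pcdh7 and of 4932441J04Rik over the shared exons cannot be told apart.

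The 6 genes lie on 6 chromosomes. Tjp1 spans chr7:65296165-65527850, Loxl2 chr14:69608692-69695834, Pcdh7 chr5:57716145-58133236, Maob chrX:16709281-16817366 and Plscr4 chr9:92457372-92493513 (GRCm38.p6). Among the nearest genes, R3hcc1, 1470 bases beyond Loxl2, was at 4.87 ± 0.40, 2.59 ± 1.70 and 5.95 ± 1.22 CPM over the 3 stages. The nearest genes to Tjp1 and Pcdh7 on both sides had 0 counts in the peritoneum.

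RefSeq promoter sequences (GRCm38.p6) were matched for 4 of the 6 genes. Loxl2 and Maob had no entry. The bases from 250 to 11 before the annotated start are printed below for Tjp1, C130026I21Rik and Plscr4, the 3 highest of the 6 in advanced cells, because they can be read beside genes that differ together between stages. Each is given 5′ to 3′ on the gene's strand, and capitals mark GC boxes, GGGCGG on either strand. For Tjp1 the window is chr7:65371255-65371494, for C130026I21Rik chr1:85270577-85270816, both on the minus strand, and for Plscr4 chr9:92457128-92457367 on the plus strand. The start that the promoter table uses lies inside the gene's RefSeq span, by 156606 bases for Tjp1, 12317 for C130026I21Rik, 1936 for Pcdh7 and 6 for Plscr4. The windows of Tjp1, C130026I21Rik and Pcdh7 therefore precede an internal start and not the outermost one.
Tjp1: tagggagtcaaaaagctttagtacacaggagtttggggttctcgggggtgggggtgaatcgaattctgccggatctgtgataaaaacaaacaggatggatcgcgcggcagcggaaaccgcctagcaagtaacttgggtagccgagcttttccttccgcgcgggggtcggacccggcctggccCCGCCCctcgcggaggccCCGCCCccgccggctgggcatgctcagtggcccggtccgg
C130026I21Rik: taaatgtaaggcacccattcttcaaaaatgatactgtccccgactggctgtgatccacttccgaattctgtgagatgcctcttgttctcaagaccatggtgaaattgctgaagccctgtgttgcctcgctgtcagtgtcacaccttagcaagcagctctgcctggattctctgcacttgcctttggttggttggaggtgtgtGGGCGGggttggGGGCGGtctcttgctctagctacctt
Plscr4: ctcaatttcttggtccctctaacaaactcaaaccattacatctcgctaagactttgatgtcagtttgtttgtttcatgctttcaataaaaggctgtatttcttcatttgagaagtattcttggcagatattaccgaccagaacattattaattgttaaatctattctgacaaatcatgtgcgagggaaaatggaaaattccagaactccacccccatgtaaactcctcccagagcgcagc

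The 3 windows differ in composition. Tjp1 has 63.8% GC, 22 CG dinucleotides and 2 GC boxes, C130026I21Rik has 51.7% GC, 5 CG dinucleotides and 2 GC boxes, and Plscr4 has 38.3% GC, 4 CG dinucleotides and no GC box. Over 32851 RefSeq promoters of the same length the median was 52.1% GC and 5 CG dinucleotides, and 31.3% held a GC box. The letters of an AP-1 site (TGANTCA, in 6.58% of promoters), a GATA site (AGATAA, 9.74%), a PU.1 site (GAGGAA, 22.3%) and a TATA box (TATAAA, 12.1%) were searched on both strands and were not in these windows or in that of Pcdh7. A match or its absence is a description of these letters in this window.

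In monocytes the 6 genes were low at every stage, and none was called in any stage contrast (edgeR), where 19% of 9465 tested genes were called for advanced against baseline, 2.05% for advanced against early and 10.8% for early against baseline. C130026I21Rik was the only one of the 6 to pass the count filter. It was at 4.15, 4.94, 4.20 and 4.47 CPM at baseline, at 2.02, 3.31, 6.93 and 3.54 early and at 5.29, 10.6, 4.75 and 10.9 at the advanced stage, on 8 to 15 counts per advanced library. The advanced and early libraries overlapped, as did advanced and baseline.

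The fitted log2 difference of C130026I21Rik in monocytes was 0.83 ± 0.38 for advanced against baseline (edgeR adjusted p = 0.141), 1.01 ± 0.43 against early (0.223) and -0.18 ± 0.39 for early against baseline (0.821). At an unadjusted p under 0.05 there were 2 of these 3 differences, those of advanced against baseline and against early, where 32.3% and 18.5% of all tested genes passed. limma-voom called advanced against baseline (0.96 ± 0.30, adjusted p = 0.0280), as it did 23% of all tested genes, and DESeq2 called none. The difference between the responses of monocytes and peritoneal macrophages was not tested.

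The other 5 genes had few monocyte counts. Loxl2 had 5 counts in baseline replicate 3 and 0 in the other 11 monocyte libraries. For a group of 4 libraries, 0 counts allow up to 0.544 CPM at the advanced stage and 0.377 CPM at the early stage, taking 3 counts over the group's total and counting error only. Pcdh7 had 3, 1, 0 and 3 counts at baseline, 1 in the early libraries together and 1 in each advanced library. Its advanced libraries thus lay above all other monocyte libraries in CPM, on single counts in libraries shallower than those at baseline. How many of all genes did the same in monocytes was not counted. Tjp1 was at 1.25 ± 0.93, 1.15 ± 1.40 and 1.49 ± 2.56 CPM, Maob at 1.42 ± 0.98, 1.65 ± 1.42 and 2.53 ± 1.47, and Plscr4 at 1.00 ± 0.97, 3.22 ± 3.38 and 1.11 ± 0.38 (SD, n = 4). With no filter on low counts none of the 18 monocyte tests passed (edgeR), and 1 had an unadjusted p under 0.05. Of all genes in that fit, 10.8% were called for advanced against baseline, 2.36% for advanced against early and 7.37% for early against baseline. At an unadjusted p under 0.05 these shares were 22%, 13.8% and 20.3%.

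Aortic macrophages held these genes in some libraries and not in others of the same group. Pcdh7 had 411, 2, 0 and 426 counts in baseline replicates 1 to 4, 26, 0, 22 and 0 at the early stage and 1, 13, 27 and 2 at the advanced stage. Plscr4 had 217, 0, 214 and 0 at baseline, 42, 3, 2 and 13 early and 0, 45, 43 and 63 advanced. C130026I21Rik had 305 counts in baseline replicate 3 and 0 in the other 3 baseline libraries, 0, 0, 1 and 0 early, and 18, 45, 24 and 28 at the advanced stage. For Pcdh7 and Plscr4 each stage held libraries with many counts and libraries with few or none. The biological coefficient of variation, the spread between libraries beyond counting error, was 110% in the aorta against 21.2% in the peritoneum and 19.1% in monocytes.

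Tjp1 had 0 counts in all 4 aortic baseline libraries, of 5278901 to 9743795 counts each. With counting error only, this allows up to 0.0918 CPM over the group. It had 8, 28, 68 and 0 counts at the early stage and 37, 40, 13 and 4 at the advanced stage. The advanced mean of 15 ± 14.9 CPM (SD, n = 4) was 164 times that floor of 3 counts over the group. The floor leaves out the spread between aortic libraries, so this ratio is not a lower bound of the difference. The 4 advanced libraries were all above the 4 baseline libraries. How many of all genes had advanced and baseline aortic libraries apart in this way was not counted. The edgeR adjusted p was 0.105 for advanced against baseline and 0.114 for early against baseline, and DESeq2 called both (adjusted p = 4.23e-05 and 6.46e-05). In these contrasts DESeq2 called 4.92% and 6.19% of all genes with an adjusted p. Advanced replicate 1 and baseline replicates 3 and 4 had been reported to stand apart from their aortic groups. Without them the advanced mean of Tjp1 was 8.57 CPM, 51.6 times a baseline floor of 0.166 CPM over the remaining 2 libraries, and C130026I21Rik had 0 baseline counts.

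None of the 4 genes tested in the aorta, Tjp1, Pcdh7, Plscr4 and C130026I21Rik, was called by edgeR in any of 12 tests, where 0.585% of 9920 tested genes were called for advanced against baseline, 0.0403% for advanced against early and 0.373% for early against baseline. At an unadjusted p under 0.05 there were 4 of the 12, where the shares of all tested genes in these contrasts were 8.83%, 3.57% and 10.2%. C130026I21Rik had the largest fitted difference for advanced against early, 6.74 ± 2.73 on the log2 scale (edgeR adjusted p = 0.9997), which limma-voom called (5.15 ± 1.13, adjusted p = 0.0120). In that contrast limma-voom called 2.37% of all tested genes. All 4 advanced libraries of C130026I21Rik, at 9.99 to 21 CPM, were above all 4 early libraries, at 0 to 0.380 CPM. How many of all genes did the same in the aorta was not counted. Loxl2 and Maob did not pass the filter: Loxl2 had 16, 19, 6 and 0 counts at the early stage, 6 in all at the advanced stage and 0 at baseline, and Maob had 1 count early, 6 advanced and 0 at baseline. DESeq2 called Loxl2 higher in early than in baseline aortic cells (adjusted p = 0.0338), among 6.19% of all genes with an adjusted p. With no filter none of the 18 aortic tests passed (edgeR), and 7 had an unadjusted p under 0.05. For advanced against baseline, advanced against early and early against baseline, 20.4%, 6.5% and 16.5% of all genes had such a p. The shares called were 1.07%, 0.259% and 0.976%.

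The fibroblast marker list summed to 527 to 1058 CPM in the early aortic libraries, 141 to 379 at the advanced stage and 8.89 to 287 at baseline, and Loxl2 was highest in the early group too. Their part in the aortic values of Loxl2 and Tjp1 was not tested. In the peritoneum the same list of 8 genes summed to at most 0.904 CPM in any library, with Pdgfra, Dpt and Mfap5 at 0 in all 12.

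**Figure D4:**
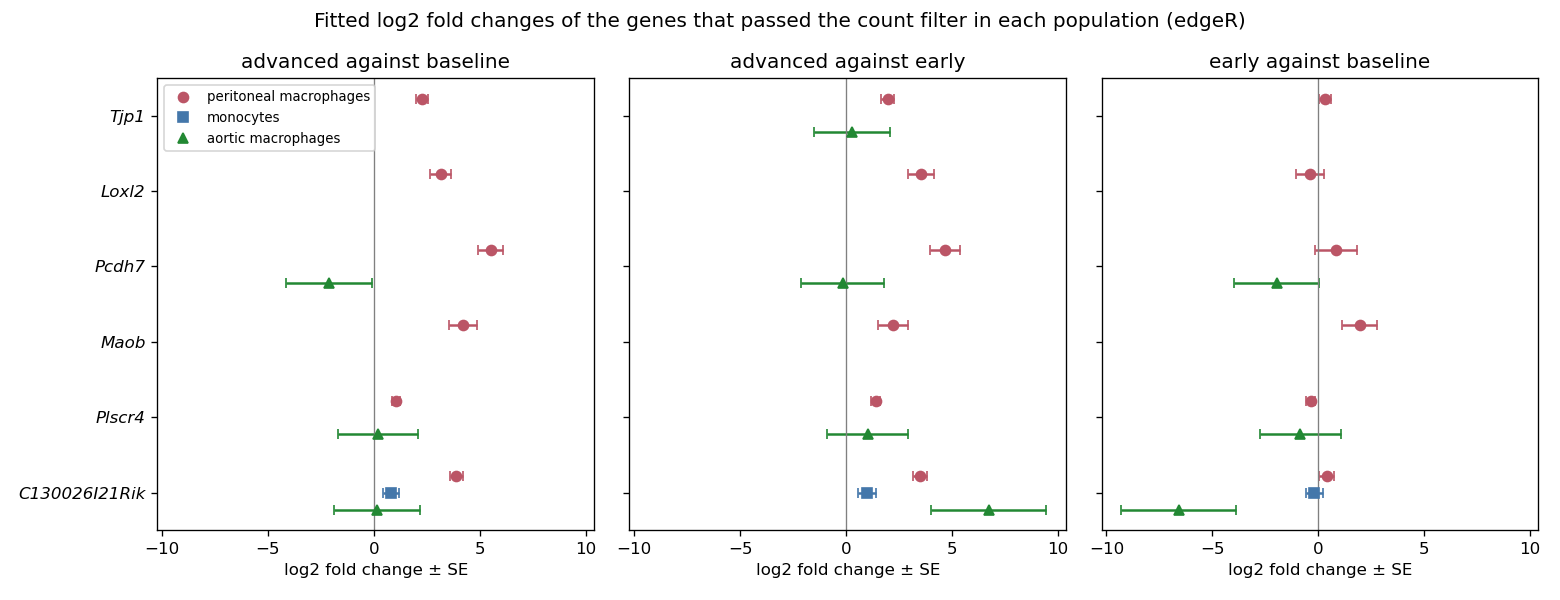
Fitted log2 fold changes (edgeR, ± SE) of the 6 genes in the 3 stage contrasts, for the populations in which each passed the count filter; Tjp1 in the aorta against baseline is left out because all baseline libraries are at 0. The peritoneal values against baseline run from 1.05 for Plscr4 to 5.52 for Pcdh7, and the aortic standard errors drawn run from 1.79 to 2.73.

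Across the 9 groups, advanced peritoneal macrophages had the highest mean CPM for 5 of the 6 genes. For Tjp1, Maob, Plscr4 and C130026I21Rik the lowest advanced peritoneal library was above the highest library of the next group in the order, which was early peritoneum at up to 38.1 CPM for Tjp1, advanced monocytes at up to 4.63 for Maob, baseline peritoneum at up to 52.9 for Plscr4 and advanced aorta at up to 21 for C130026I21Rik. How many of all genes were highest in that group, or apart from the next group in this way, was not counted. The rule chose the 6 on peritoneal values, so this order is a description. For Loxl2 the next group, early aorta, reached 14.5 CPM and overlapped the lowest advanced peritoneal library at 12.6. For C130026I21Rik a single baseline aortic library, lower in the order, reached 57.8 CPM and lay above the lowest advanced peritoneal library at 47.5.

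For Pcdh7 the highest mean was that of baseline aorta, 22 ± 25.3 CPM, followed by advanced peritoneum at 16.7 ± 6.61 (SD, n = 4), and the libraries overlapped. At lower ranks the neighbouring groups overlapped for every gene, except that monocytes at the early stage (2.02 to 6.93 CPM) lay above early aorta for C130026I21Rik. Baseline peritoneal cells held more Tjp1 than baseline monocytes in every library, 21.7 against 1.25 CPM on average, and more Plscr4, 47.4 against 1.00 CPM. How many of all genes kept these populations apart at baseline was not counted. Baseline Maob was lower in the peritoneum than in monocytes on average, 0.453 against 1.42 CPM, and the libraries overlapped.

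Markers of other cell types were read in the peritoneal libraries beside the 6 genes, since Tjp1, Loxl2 and Pcdh7 are also transcribed by epithelial, mesothelial or connective-tissue cells. The 11 mesothelial markers counted summed to 0.904 to 4.80 CPM at the advanced stage, 2.93 to 4.01 at baseline and 2.65 to 20.9 early, with Msln, Wt1, Upk3b, Upk1b and Bnc1 at 0 in all 12 libraries. The endothelial list summed to 0.546 to 3.00 CPM at the advanced stage, 2.73 to 5.62 at baseline and 1.94 to 8.60 early, with Tie1, Emcn and Tek at 0 throughout. At the advanced stage Tjp1 was at 85.9 CPM or more in each library, Loxl2 at 12.6 to 27.8 and Pcdh7 at 11.5 to 26.4. Any part of other cell types in these values was not tested.

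Large peritoneal macrophage markers summed to 17674 to 21080 CPM at the advanced stage, 21697 to 26780 at baseline and 7261 to 21519 early, and none of the 12 was called in a peritoneal contrast (edgeR). limma-voom and DESeq2 called Vsig4 higher in advanced than in early cells. Of the 9 small peritoneal macrophage markers tested, 4 were called lower in advanced than in early cells, H2-Aa, H2-Ab1, Ccr2 and Fcrls, and none passed that test against baseline. Without early libraries 1 and 2, edgeR called Ccr2 lower (log2 -1.12 ± 0.32, adjusted p = 0.0389) and Cd209a higher (1.89 ± 0.39, adjusted p = 0.0102) in advanced than in baseline cells, among 11% of all tested genes. limma-voom on all libraries also called Cd209a higher. Ccr2 was at 3.17 to 6.60 CPM in the advanced libraries and 7.64 to 12.3 at baseline, with no overlap. Mast cell markers summed to 49.6 to 139 CPM at the advanced stage, 56.4 to 89.6 at baseline and 113 to 462 early, and B cell markers to 11.3 to 57.6, 3.00 to 55.0 and 60.4 to 77.8 CPM.

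**Figure D5:**
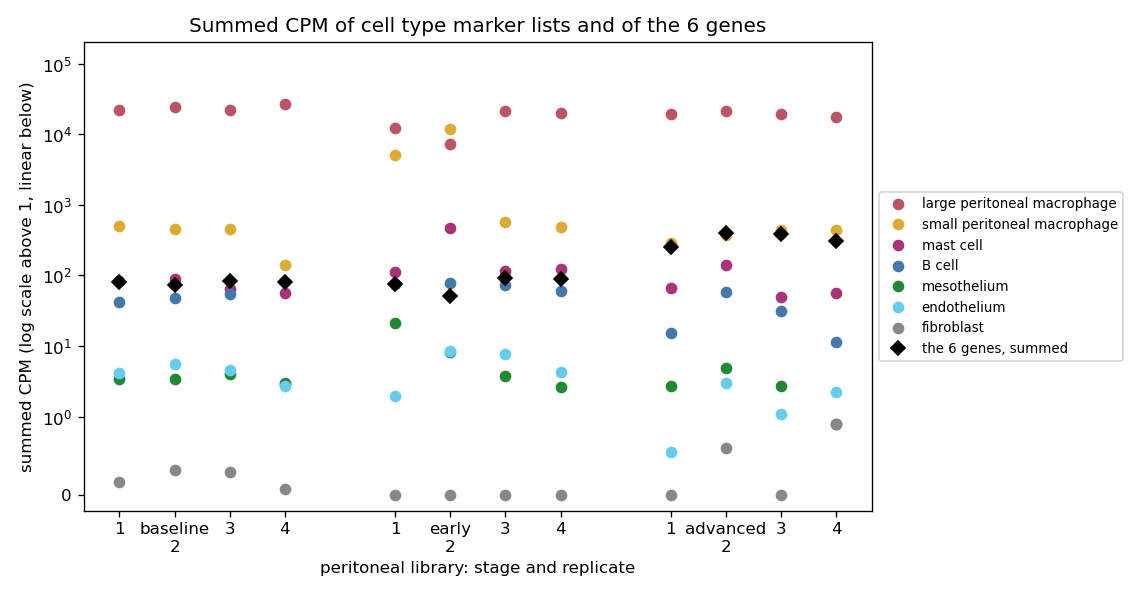
Summed CPM (log scale above 1, linear below) of marker lists and of the 6 genes together (black diamonds) in each of the 12 peritoneal libraries. Early libraries 1 and 2 have high small peritoneal macrophage sums (4999 and 11681 CPM), fibroblast and mesothelial sums stay at or below 20.9 CPM, and the 6 genes sum to more in each of the 4 advanced libraries than in the other 8.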

How the data were processed

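RNA was purified from sorted cells on small-input columns, made into Ovation SoLo libraries and sequenced in paired ends, per the labels' protocols. The labels name polyA RNA. What the authors deposited are raw read counts per gene, 1 table per library, not normalised. The submitters' processing notes name STAR, featureCounts and mm10. Versions, strand setting and the treatment of multiply mapped reads are not given in the sources used here. Totals ran from 942899 to 14771799 counts. Rn45s, 4.74 to 19.8% of counts, was kept in the totals. No 2 libraries were identical. Sample titles gave the groups.

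Within each population, the 12 libraries were fitted by stage in edgeR 4.0.16 under R 4.3.3 with its quasi-likelihood F-test, TMM normalisation, filterByExpr, and Benjamini-Hochberg adjustment over all genes tested, threshold 0.05, two-sided. Each SE was obtained by dividing the log2 fold change by the root of its F statistic. The fit was tested on simulated data. Also run were DESeq2 1.42.0, limma 3.58.1 (voom, quality weights), RLE scaling, an unfiltered fit, a replicate block, thinning to the shallowest library, omission of Rn45s, of libraries that stood apart, and of each library. Counts carry no molecular identifiers, so the floor of 3 counts covers counting error only.

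The 6 genes, the gene and marker lists and the libraries that stood apart were chosen with earlier results of these data known. Genes named beside the 6 were the 3 with the highest Pearson r (log2 CPM, prior count 2, mean of at least 5 CPM), list genes that passed (none did), and flanking genes. Other list genes and paralogs named were chosen after their values were seen. Transcripts were compared with BLAST (2.17.0) against GENCODE transcripts of GRCm38. One gene of the junction list is not reported here.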

Additional observations from a re-analysis of the deposited data

Results flagged for a closer look

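The 6 genes were checked for a library far from its group in every group of 4 (Dixon's ratio above its 95% critical value). Of 49 groups with any spread, 11 had such a library. The critical value would flag about 1 in 20 groups of normally distributed values. A group with 1 library above 0 and the rest at 0 always exceeds it, as several here do. That rate therefore does not apply to the 11 flagged groups. In the peritoneum these were baseline replicate 4 for Tjp1, at 31.4 CPM against 17.1 to 19.4 in the others, and for Loxl2, at 4.54 against 1.35 to 1.86. Advanced replicate 1 stood at 9.29 CPM for Maob, against 7.62 to 7.80, and early replicate 2 at 5.47 CPM on 14 counts, against 0 to 0.530. In aortic baseline replicate 3 C130026I21Rik was at 57.8 CPM on 305 counts with 0 in the other 3.

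The remaining 6 rest on few counts. They are Tjp1 in monocyte advanced replicate 2 at 5.30 CPM (5 counts), Loxl2 in monocyte baseline replicate 3 at 0.339 CPM (5 counts), Pcdh7 in monocyte early replicate 4 at 0.443 CPM (1 count), Maob in aortic early replicate 1 at 0.508 CPM (1 count), Maob in monocyte early replicate 3 at 3.78 CPM (6 counts) and C130026I21Rik in aortic early replicate 3 at 0.380 CPM (1 count). Their causes were not tested.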

How the results depend on the processing

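The 12 peritoneal differences of advanced cells from baseline and early cells kept their direction in every alternative that gave a value. The contrasts with advanced cells chose the genes, so their calls and adjusted p-values describe the fits and are no test. Of all genes, DESeq2 called 4.64% against baseline and 5.12% against early, and limma-voom 15.9% and 2.17%. Over the 3 peritoneal contrasts, 11 of 18 differences were called in the main fit, 12 by DESeq2 and by limma-voom, and 10 after thinning. It was 11 with RLE, no filter, no Rn45s or without the libraries that stood apart, and 4 to 11 when single libraries were left out. The count fell to 4 without advanced replicate 3, and to 7 without advanced replicate 2 or 4. Without advanced replicate 3 the calls over all genes also fell, to 3 against baseline and 5 against early, from 86 and 127. After thinning they were 58 and 88 of 8124 tested genes. Without early libraries 1 and 2 Loxl2 against early was 2.72 (edgeR adjusted p = 0.0614), and Maob against early was 4.59 (0.0161). In monocytes 0 tests were called except 1 by limma-voom, and thinning left none of the 6 to test. In the aorta 0 were called except 3 by DESeq2 and 1 by limma-voom. Advanced peritoneum was highest for 5 of 6 genes under all 3 scalings.

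Within each population, replicate numbers did not pair libraries of different stages. Deviations of same-numbered libraries correlated at -0.347 to 0.186, and in 0 of 9 comparisons did all pairs exceed 0.1. Same-numbered libraries of different populations at the same stage were not compared. With the replicate block 9 peritoneal, 0 monocyte and 0 aortic tests were called. The block gave 14, 39 and 43 genes called in the peritoneum (advanced against baseline, advanced against early, early against baseline) where the main fit gave 86, 127 and 171, and 114 for monocytes advanced against early where it gave 194. It also turned Pcdh7, aorta, advanced against early, to 1.249.

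Signs turned elsewhere, all in differences that no main fit called. In the peritoneum, early against baseline, Loxl2 was 0.750 by limma-voom and 0.425 without the libraries that stood apart, Maob -0.384 without them and C130026I21Rik -0.144 after thinning. Leaving out single libraries gave -1.043 to 0.206 for Loxl2 and -1.078 to 2.406 for Maob, and -0.567 to 0.040 for C130026I21Rik in monocytes. In the aorta limma-voom gave 0.445 for Pcdh7 against baseline, -0.782 for Tjp1 and 0.522 for Pcdh7 against early, and 1.396 for Plscr4 and 1.415 for C130026I21Rik, early against baseline. Without the libraries that stood apart Tjp1 was -0.481 and Pcdh7 0.194 against early, and C130026I21Rik 2.167, early against baseline. Leaving out single aortic libraries gave, for advanced against baseline, -0.219 to 1.320 for Plscr4 and -0.269 to 8.946 for C130026I21Rik. For advanced against early it gave -0.482 to 0.901 for Tjp1 and -1.004 to 0.828 for Pcdh7, and for early against baseline -2.087 to 0.281 for Plscr4 and -8.877 to 2.210 for C130026I21Rik. The upper C130026I21Rik values are those without baseline replicate 3, which holds all its baseline counts. The other causes were not tested.

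Counts of all genes called moved by over 1.5 times in these cases. Peritoneum, advanced against baseline: 478 by DESeq2, 1525 by limma-voom, 1072 without early libraries 1 and 2, 3 to 405 leaving out single libraries. Advanced against early: 607, 208, 266 without a filter, 5 to 419. Early against baseline: 791, 382, 434, 106 thinned, 88 without early libraries 1 and 2, 4 to 625. Monocytes, advanced against baseline: 1798 in the main fit, 1144 thinned, 1182 without advanced replicate 3. Advanced against early: 502 by DESeq2, 373 without a filter, 91 without advanced replicate 3, 34 to 357. Early against baseline: 1023 and 544 thinned, 548 to 1268. Aorta, advanced against baseline: 58, with 549 by DESeq2, 151 by limma-voom, 165 without a filter, 92 thinned, 173 without the libraries that stood apart, 32 to 154. Advanced against early: 4, with 50, 235, 40, 7 and 34 in that order, 0 to 13. Early against baseline: 37, with 707 by DESeq2, 151 without a filter, 114 without the libraries that stood apart, 12 to 120. Depth limits Maob, Pcdh7 and Loxl2, which rest on few counts in most groups. In early peritoneum their summed counts were 15, 5 and 14. Maob held only 13 to 17 counts per library in advanced peritoneum, while Pcdh7 held 839 counts over the aortic baseline libraries.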
